A study of Mus musculus with 4 samples.

Results

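The circles described here are the circular RNAs (circRNAs) whose deposited host gene is Nfix, Nfib, Nfia or Nfic, the 4 mouse genes of the nuclear factor I family. A circRNA forms when the end of an exon is spliced back to the start of the same or an earlier exon, and reads across that back-splice are its junction reads. Members were taken by the deposited Ensembl host identifier, and 28 of the 13499 distinct circRNAs in the series (0.207%) belonged to the family. They held 895 of 121689 junction reads (0.735%). Nfix hosted 7 of the circles, Nfib 15 and Nfia 6, and no circle of Nfic was listed. The study sequenced total RNA of whole C57BL/6 mouse lung, 1 library per stage: pseudoglandular at embryonic day 14.5, canalicular at embryonic day 16.5, terminal sac at embryonic day 18.5 and alveolar at newborn day 7.5. The labels name no treatment and no genotype beyond the strain, and they do not say whether several animals were pooled. A single library stands for each stage, so spread between animals could not be measured, no test was made, and every interval below covers counting error only.

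Nuclear factor I proteins are transcription factors that bind a palindromic DNA site as dimers through a shared amino-terminal DNA-binding domain, and they can activate or repress their targets. In mice Nfib is needed for lung maturation before birth, Nfia for brain midline development, Nfix for brain and fetal muscle development and Nfic for tooth root growth. A long exon 2 that codes for much of the DNA-binding domain is a shared feature of the family. Exon 2 is also where many mammalian circRNAs begin, because the first exon lacks the splice acceptor that back-splicing uses.

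The 4 libraries held 25983, 31218, 36156 and 28332 junction reads in order of stage, in 4474 to 5564 circRNAs each, and no listed circRNA had fewer than 2 junction reads. Absence from a list therefore does not give an upper limit on a circle's level. Markers of epithelium were listed for 3 of 6 genes, with 0, 6, 440 and 739 junction reads in order of stage, and Nkx2-1, Cdh1 and Epcam were not listed. Mesenchyme markers were listed for 4 of 6 genes, with 22, 12, 57 and 1836 junction reads, without Tcf21 and Foxf1. Endothelial markers (5 of 5 genes) had 6, 19, 24 and 70, immune markers (4 of 4) 6, 31, 29 and 11, and striated muscle and heart markers (3 of 4, without Myh6) 94, 28, 16 and 26. Erythroid and neural markers were each listed for 1 of 3 genes, with at most 7 junction reads in a library.

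The back-splice junctions that carry the family's reads are shown first, since they define what was counted. Each line gives the last 40 bases of the exon at the junction's left in lower case and the first 40 bases of the exon it is joined to in capitals, 5′ to 3′ on the strand of the gene, from GENCODE M21 transcripts on the mm10 (GRCm38) assembly. Nfix exon 2 is chr8:84771784-84772315 on the minus strand, Nfib exon 2 is chr4:82498238-82498769 on the minus strand, Nfia exon 2 is chr4:97783082-97783613 on the plus strand and Nfic exon 2 is chr10:81420267-81420798 on the minus strand. The first 2 junctions were listed. The next 2, the matching junctions of Nfia and Nfic, were not listed in any library and are given for comparison.
Nfix exon 2 to exon 2: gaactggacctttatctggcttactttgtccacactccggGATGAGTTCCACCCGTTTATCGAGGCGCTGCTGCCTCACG
Nfib exon 2 to exon 2: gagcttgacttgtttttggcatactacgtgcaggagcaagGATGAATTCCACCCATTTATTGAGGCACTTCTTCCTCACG
Nfia exon 2 to exon 2: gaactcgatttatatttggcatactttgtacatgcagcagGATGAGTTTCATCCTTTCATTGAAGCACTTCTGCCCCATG
Nfic exon 2 to exon 2: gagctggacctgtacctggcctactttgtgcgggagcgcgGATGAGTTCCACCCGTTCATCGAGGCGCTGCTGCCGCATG

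The main multi-exon circles join a later exon to exon 2 or exon 3. The first is the most read Nfib circle (exons 2 to 6, chr4:82350389-82498769), the second the next Nfib circle (exons 3 to 6, chr4:82350389-82383661), the third the next Nfix circle (exons 2 to 8, chr8:84721643-84772315) and the last the most read Nfia circle (exons 2 to 6, chr4:97783082-98020954).
Nfib exon 6 to exon 2: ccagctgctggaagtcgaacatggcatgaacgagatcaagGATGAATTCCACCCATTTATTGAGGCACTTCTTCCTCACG
Nfib exon 6 to exon 3: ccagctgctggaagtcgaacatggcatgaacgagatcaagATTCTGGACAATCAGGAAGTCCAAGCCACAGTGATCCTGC
Nfix exon 8 to exon 2: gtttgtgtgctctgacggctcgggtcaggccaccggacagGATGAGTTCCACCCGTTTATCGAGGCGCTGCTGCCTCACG
Nfia exon 6 to exon 2: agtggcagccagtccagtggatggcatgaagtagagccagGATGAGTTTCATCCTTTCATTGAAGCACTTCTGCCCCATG

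Exon 2 was 532 bases long in all 4 genes, which leaves a remainder of 1 when divided by 3. It was wholly coding in each of the 5 Nfix, 6 Nfia and 5 Nfic annotated transcripts that contain it, and in 6 of the 9 that do in Nfib. Compared without gaps, Nfix exon 2 was identical at 82.0% of bases to that of Nfic, at 78.6% to that of Nfib and at 78.6% to that of Nfia. The longest run of identical bases between Nfix and another member was 32 bases, shared with Nfic, against 21 bases with Nfib and 17 with Nfia. Across the 80 bases around the junction, Nfix differed from Nfib at 22 bases, from Nfia at 22 and from Nfic at 15. The first 150 bases of exon 2 show how alike the genes are, with capitals marking bases that differ from Nfix.
Nfix exon 2: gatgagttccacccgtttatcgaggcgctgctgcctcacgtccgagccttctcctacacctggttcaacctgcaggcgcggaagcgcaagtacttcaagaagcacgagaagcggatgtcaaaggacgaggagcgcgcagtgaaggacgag
Nfib exon 2: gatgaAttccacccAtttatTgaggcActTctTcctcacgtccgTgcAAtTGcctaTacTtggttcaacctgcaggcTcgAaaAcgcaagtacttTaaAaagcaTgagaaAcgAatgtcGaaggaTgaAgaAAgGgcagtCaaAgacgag
Nfia exon 2: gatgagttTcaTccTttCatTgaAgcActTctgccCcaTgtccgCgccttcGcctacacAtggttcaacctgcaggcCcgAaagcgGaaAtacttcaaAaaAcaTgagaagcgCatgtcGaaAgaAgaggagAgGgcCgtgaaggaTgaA
Nfic exon 2: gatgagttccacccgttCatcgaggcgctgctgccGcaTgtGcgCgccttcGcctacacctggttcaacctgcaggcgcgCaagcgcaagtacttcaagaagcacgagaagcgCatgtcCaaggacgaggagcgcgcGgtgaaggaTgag
In these windows Nfix differed from Nfib at 29 bases, from Nfia at 29 and from Nfic at 11.

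The introns around exon 2 differ more than the exon itself. In the transcripts used for exon numbers (Nfix-204, Nfib-201, Nfia-202 and Nfic-201), the downstream intron was 43816 bases in Nfix, 114576 in Nfib, 172760 in Nfia and 10584 in Nfic. The upstream intron was 1038 bases in Nfix, against 5961 in Nfib, 5087 in Nfia and 6277 in Nfic. Other Nfix transcripts begin farther upstream, and their upstream intron reaches 27682 bases. The lengths are annotation, and no library tells which first exon the Nfix transcripts of these lungs used.

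The circle of Nfix exon 2 alone led the family at every stage. Its junction reads numbered 120, 186, 172 and 199 in order of stage, 677 in all, which ranked it 9 among all circRNAs of the series. The alveolar library thus had most and the pseudoglandular library fewest. Within a library it ranked 13, 7, 10 and 8 in order of stage. Alignment patterns at its junction, summed over the deposited pattern types, numbered 87, 102, 113 and 135. Such a sum can exceed the reads, as in the canalicular library, where Nfib exons 2 to 6 had 21 patterns on 18 reads. It is therefore not a count of distinct reads. The sums for Nfix exon 2 were still too large for copies of a few reads. It made up 69.0%, 74.7%, 73.2% and 84.0% of the family's junction reads in order of stage, and between 89.6% and 97.7% of those of Nfix.

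**Figure D1:**
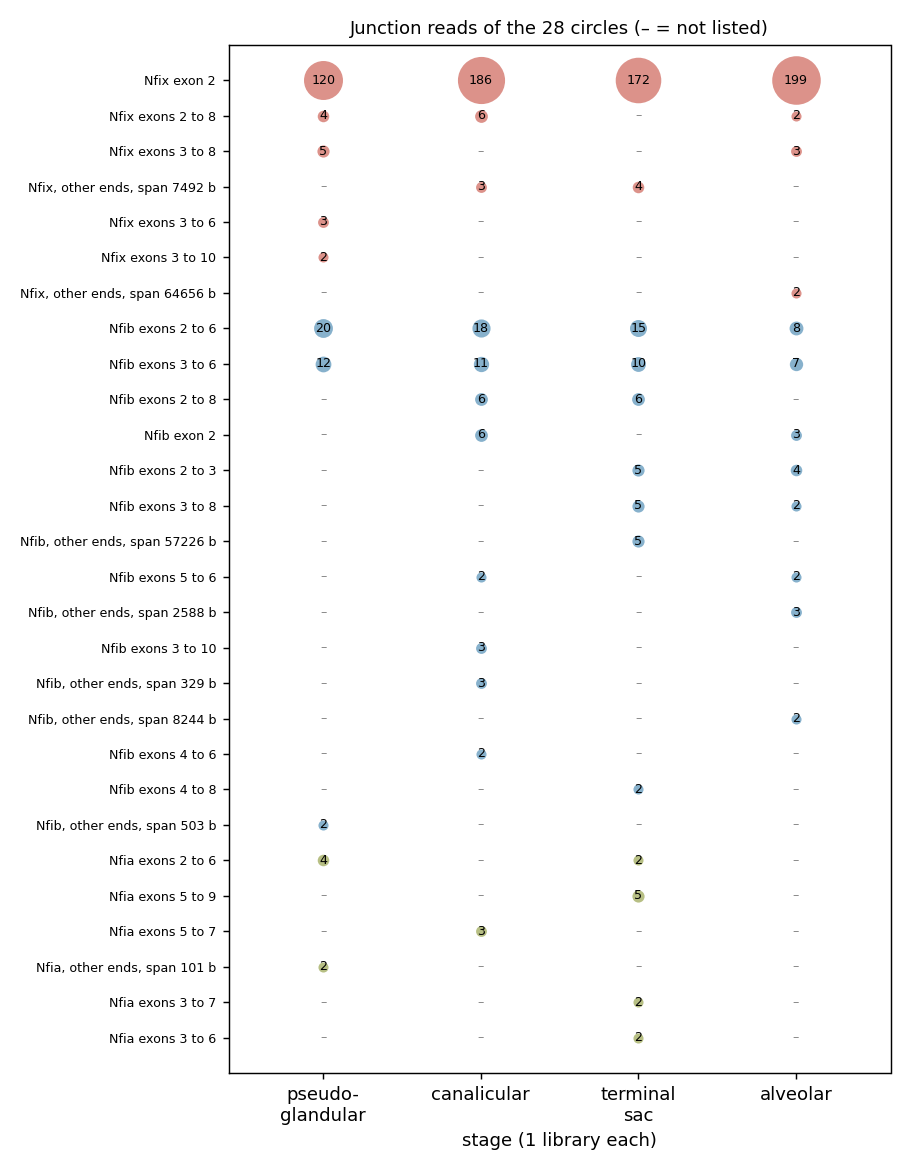
Junction reads of each of the 28 circles (rows) in the 4 libraries (columns, in order of stage). Numbers are junction reads, dot area grows with them, a dash marks a circle that was not listed, and colours mark Nfix (red), Nfib (blue) and Nfia (green). Nfix exon 2 has 120 to 199 junction reads per library, and the next circle, Nfib exons 2 to 6, has 8 to 20.

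As a share of a library's junction reads, Nfix exon 2 was 0.462% in the pseudoglandular library (exact Clopper-Pearson 95% interval 0.383% to 0.552%) and 0.596% in the canalicular library (0.513% to 0.688%). It was 0.476% (0.407% to 0.552%) in the terminal sac library and 0.702% (0.608% to 0.807%) in the alveolar library. The alveolar level was thus the highest and the pseudoglandular level the lowest, and the intervals of the pseudoglandular and terminal sac libraries nearly coincide. Between libraries, the ratio of shares was taken with an exact conditional binomial 95% interval, for circles with at least 10 junction reads over both libraries. Calls, higher or lower, needed a change of 2-fold or more and an interval without 1. The alveolar share was 1.52 times the pseudoglandular share (1.21 to 1.92) and 1.48 times the terminal sac share (1.20 to 1.82). The canalicular share was 1.29 times the pseudoglandular share (1.02 to 1.64), and the terminal sac share was 0.798 times the canalicular share (0.645 to 0.988). All 4 intervals excluded 1, none of the 4 ratios reached 2-fold, and the circle was called in no comparison. With scaling by the median of ratios the terminal sac against canalicular interval reached 1 (0.657 to 1.01). Its neighbours in the order of levels, terminal sac against pseudoglandular (1.03, 0.811 to 1.31) and alveolar against canalicular (1.18, 0.960 to 1.45), did not differ beyond counting error. The alveolar against canalicular ratio was 1.36 (1.11 to 1.67) with the median of ratios, so that this pair is separated or not depending on the scaling. Lung is a mixture of cells, and fewer cells of a type and less RNA per cell cannot be told apart here.

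By the same rule, 29.6% of 933 circRNAs were called between the alveolar and the pseudoglandular library and 18.0% of 1017 between the canalicular and the pseudoglandular library. The share called was 20.1% of 1208 between the terminal sac and the canalicular library and 21.5% of 1123 between the alveolar and the terminal sac library. Of the alveolar against pseudoglandular calls 41.3% were higher, or 53.5% with scaling by the median of ratios. Of the alveolar against terminal sac calls 49.0% were higher, or 60.5% with that scaling. Of the canalicular against pseudoglandular calls 45.4% were higher, or 63.1% when scaled by non-junction reads. Against that background, 1 of the 3 family circles with enough reads was called between the alveolar and the pseudoglandular library, 0 of 4 between the canalicular and the pseudoglandular, 0 of 4 between the terminal sac and the canalicular and 0 of 3 between the alveolar and the terminal sac library. The single call is Nfib exons 2 to 6, described below.

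The linear reads at the same ends moved differently from the circle. Non-junction reads are reads that run linearly across the ends of exon 2, and they numbered 427, 482, 312 and 1005 in order of stage. Of the non-junction reads of the 897 circRNAs listed in all 4 libraries they were 0.0812%, 0.0814%, 0.0704% and 0.215% in order of stage. On this scale the first 3 libraries were close together. The alveolar share was 3.05 times the terminal sac share and 2.65 times the pseudoglandular share. Over all listed circRNAs the libraries held 2940865, 3128355, 3799337 and 2852933 non-junction reads in order of stage. The terminal sac library thus had the fewest linear reads at these ends in the largest total. On that scale it lay below the other prenatal libraries. At the ends of the Nfix circles of exons 2 to 8 and 3 to 8 the alveolar library had 705 and 1085 non-junction reads, against 290 and 430 in the pseudoglandular library. The linear reads of Nfix were thus more numerous in the alveolar library at each of these ends.

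The junction ratio is the deposited fraction of circular reads at a circle's ends, in which each junction read counts for 2 linear ones. For Nfix exon 2 it was 36.0%, 43.6%, 52.4% and 28.4% in order of stage, highest in the terminal sac and lowest in the alveolar library. The median over circRNAs with 10 or more junction reads was 8.80%, 8.90%, 11.5% and 9.75%, and Nfix exon 2 lay above 91.5%, 93.4%, 94.5% and 85.8% of them.

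**Figure D2:**
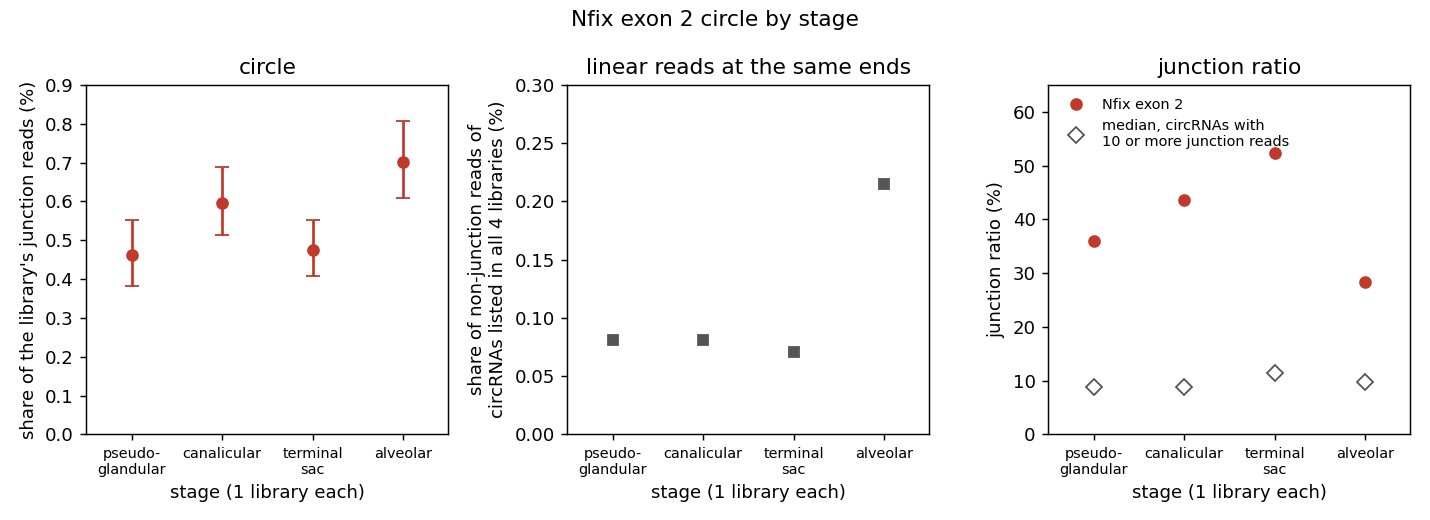
The Nfix exon 2 circle in the 4 libraries, in order of stage (horizontal axes). Left, its share of junction reads in percent, with exact 95% counting intervals; middle, the share of non-junction reads at its ends in percent; right, its junction ratio in percent (filled) with the median of circRNAs with 10 or more junction reads (open). The alveolar library has the highest circular share, 0.702%, the highest linear share, 0.215%, and the lowest junction ratio, 28.4%.

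Circular reads were set against linear reads by an odds ratio, the junction to non-junction odds of the later library over those of the earlier, after adding 0.5 to each count, and given with Woolf's 95% interval. It was called at 2-fold or more with an interval that excludes 1. Counts of calls cover circRNAs listed in both libraries with at least 10 junction reads over both. For Nfix exon 2 it was 0.359 (0.283 to 0.457) in the alveolar against the terminal sac library, 2.78-fold lower (2.19 to 3.54), and this was called. It was 0.704 (0.547 to 0.906) in the alveolar against the pseudoglandular library, 1.37 (1.05 to 1.78) in the canalicular against the pseudoglandular and 1.43 (1.11 to 1.84) in the terminal sac against the canalicular library, none of them called. Across the embryonic span, terminal sac against pseudoglandular, it was 1.96 (1.49 to 2.58). The junction reads of the circle were 199 in the alveolar and 172 in the terminal sac library, while its non-junction reads were 1005 and 312, a 3.22-fold difference in the linear reads.

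Other circRNAs shifted the same way between these libraries. The background was circRNAs listed in both libraries with at least 10 junction reads over both. Their median odds ratio was 0.709 in the alveolar against the terminal sac library, and 23.3% of 1000 were called, 36 higher and 197 lower. The value of Nfix exon 2 was below that median, with 187 of the 1000 at or below it. For terminal sac against canalicular the median was 1.47, close to the 1.43 of Nfix exon 2, and 22.8% of 1089 were called. The share called was 15.8% of 906 in the canalicular against the pseudoglandular library, where the median was 1.18. It was 22.3% of 798 in the alveolar against the pseudoglandular library, where the median was also 1.18 and Nfix exon 2, at 0.704, lay on the other side of 1. Summed over circRNAs listed in all 4 libraries, there were 39.3, 35.9, 24.2 and 34.3 non-junction reads per junction read in order of stage, fewest in the terminal sac library. Over all listed circRNAs there were 113, 100, 105 and 101, where that library did not stand apart. The part of these differences in the odds ratios was not tested.

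**Figure D3:**
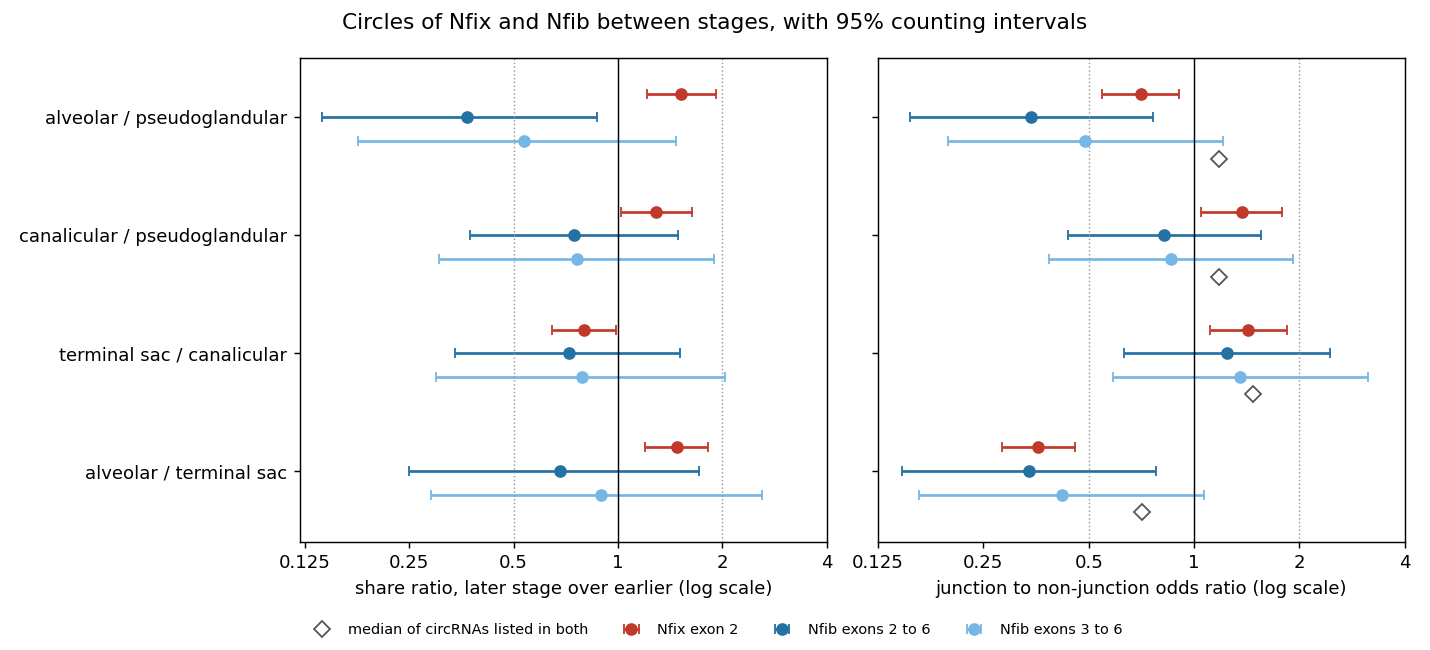
Ratios of the later over the earlier library (rows) for Nfix exon 2 (red), Nfib exons 2 to 6 (dark blue) and Nfib exons 3 to 6 (light blue). Left, ratio of shares of junction reads, and right, junction to non-junction odds ratio, both on log axes. Bars are 95% counting intervals and dotted lines mark 2-fold. Diamonds mark the median odds ratio of circRNAs listed in both libraries with at least 10 junction reads over both. In the alveolar against the terminal sac library the share ratio of Nfix exon 2 is 1.48 and its odds ratio 0.359.

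The other 6 Nfix circles were rare. Together they had 14, 9, 4 and 7 junction reads in order of stage, against 120, 186, 172 and 199 for exon 2. The circle of exons 2 to 8, 7 exons with a spliced length of 1227 bases, had 4 junction reads in the pseudoglandular, 6 in the canalicular and 2 in the alveolar library and was not listed in the terminal sac library. It starts at the same acceptor as the exon 2 circle. The circle of exons 3 to 8, which skips exon 2, had 5 junction reads in the pseudoglandular and 3 in the alveolar library. The circles of exons 3 to 6 and 3 to 10 had 3 and 2 junction reads in the pseudoglandular library. No Nfix circle other than exon 2 had more than 6 junction reads in a library. Their sum in the terminal sac library was 0.205 times that in the pseudoglandular library as a share (0.0492 to 0.654), which meets the rule for lower, on 4 against 14 reads. In that comparison 25.0% of 1183 host genes were called, each counted over all its circles, which this sum is not. The other comparisons of the sum were not called. They gave 0.459 for alveolar against pseudoglandular, 0.535 for canalicular against pseudoglandular and 0.384 for terminal sac against canalicular. For alveolar against terminal sac the ratio was 2.23, and for alveolar against canalicular 0.857.

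A pair of Nfix circles had an end outside the annotated exon boundaries. One, chr8:84771784-84779275, had 3 junction reads in the canalicular and 4 in the terminal sac library. It runs from an intron of the longer Nfix transcripts to the last base of exon 2, in a span of 7492 bases that holds exons 1 and 2 of Nfix-204. Its intronic end lies 807 bases downstream of an Nfix start in RefSeq. The other, chr8:84707660-84772315, joins a position inside the last exon to the start of exon 2 and had 2 junction reads in the alveolar library.

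**Figure D4:**
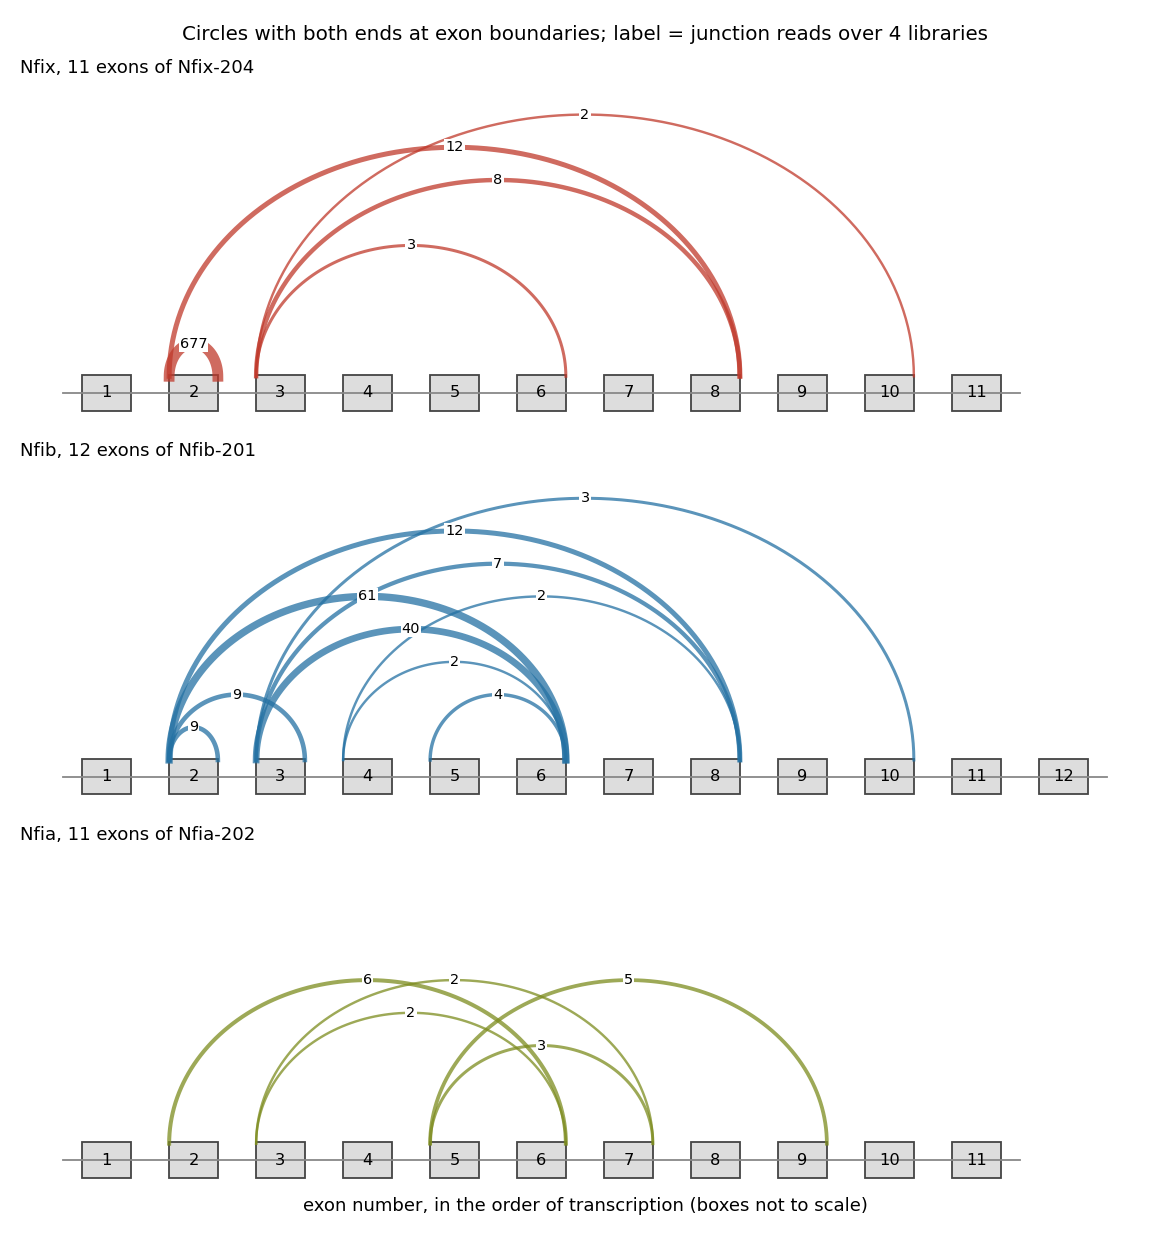
Circles with both ends at exon boundaries, drawn as arcs over the exons of Nfix-204, Nfib-201 and Nfia-202 (numbered boxes in the order of transcription, not to scale). Each arc joins the first to the last exon of a circle, its width grows with the logarithm of junction reads and its label gives junction reads over the 4 libraries. Nfix reads sit on the exon 2 arc (677), while Nfib reads spread over arcs that end mostly at exon 6 (61 and 40 for the widest).

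Nfib, the family member needed for lung maturation, had more circles than Nfix and fewer reads. Its 15 circles held 164 junction reads, 34, 51, 48 and 31 in order of stage. The share of the gene was 0.131%, 0.163%, 0.133% and 0.109%, and no comparison of it was called. The alveolar share of Nfib was 0.836 times the pseudoglandular share (0.497 to 1.40), and that of Nfix was 1.41 times it (1.13 to 1.77). Nfib had 3 circles in the pseudoglandular library and 7 or 8 in each of the later ones. Over all genes the libraries listed 4599, 4947, 5564 and 4474 circRNAs in order of stage. The Nfib circles not listed in the pseudoglandular library had 2 to 6 junction reads where listed, near the limit of listing.

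The most read Nfib circle, exons 2 to 6, had 20, 18, 15 and 8 junction reads in order of stage and was listed in all 4 libraries. Its spliced length is 895 bases in a genomic span of 148381 bases. Each library had fewer reads of it than the stage before. Its share was 0.0282% (0.0122% to 0.0556%) in the alveolar library, against 0.0770% (0.0470% to 0.119%) in the pseudoglandular library. That was 2.73-fold lower (1.15 to 7.16) and the only family circle called between shares. The steps between neighbouring stages were not called, at 0.749 (0.374 to 1.49) for canalicular against pseudoglandular, 0.720 (0.338 to 1.51) for terminal sac against canalicular and 0.681 (0.250 to 1.71) for alveolar against terminal sac.

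Linear reads at the ends of this Nfib circle were 1894, 2080, 1407 and 2288 in order of stage, many more than at Nfix exon 2. Its junction ratio was 2.07%, 1.70%, 2.09% and 0.694%, below the medians given above at each stage. Its odds ratio was 0.343 (0.154 to 0.765) in the alveolar against the pseudoglandular library, 2.91-fold lower (1.31 to 6.50). It was 0.337 (0.146 to 0.781) in the alveolar against the terminal sac library, 2.96-fold lower (1.28 to 6.86). Both were called, so that 1 of 3 family circles was called by odds ratio in the alveolar against the pseudoglandular library and 2 of 3 in the alveolar against the terminal sac library, both lower. Over all circRNAs listed in both with at least 10 junction reads, 22.3% and 23.3% were called in these comparisons. Of the 233 calls in the alveolar against the terminal sac library 197 were lower. In the other 2 comparisons 0 of 4 were called.

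Nfib exons 3 to 6, a circle of 363 bases that shares the exon 6 end, had 12, 11, 10 and 7 junction reads in order of stage. Its alveolar share was 0.535 times the pseudoglandular share (0.178 to 1.47) and was not called. Linear reads at its ends were 1979, 2116, 1426 and 2426. Its odds ratio in the alveolar against the terminal sac library was 0.420 (0.164 to 1.07), not called. Nfib exons 2 to 8, with a spliced length of 1215 bases, had 6 junction reads in the canalicular and 6 in the terminal sac library and was not listed in the other 2.

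The same exon that circularised alone in Nfix did so rarely in Nfib. The Nfib exon 2 circle had 6 junction reads with 1235 linear reads in the canalicular library and 3 with 1484 in the alveolar library, junction ratios of 0.962% and 0.403%. It was not listed in the pseudoglandular and terminal sac libraries. Within the canalicular library Nfix exon 2 had 31.0 times the junction reads of Nfib exon 2 (14.0 to 85.6), and its odds of junction to non-junction reads were 73.5 times as high (33.4 to 162). Within the alveolar library the odds were 84.2 times as high (29.2 to 243). Against Nfib exons 2 to 6, the odds of Nfix exon 2 were 26.0 times as high (16.1 to 42.1) in the pseudoglandular library. They were 43.5 times as high (26.7 to 70.8) in the canalicular library, 50.1 times (29.4 to 85.5) in the terminal sac library and 53.4 times (26.8 to 107) in the alveolar library. Both genes are compared here within 1 library, and each count is of reads across the ends of a circle. The part of exon and circle length in these odds was not tested.

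**Figure D5:**
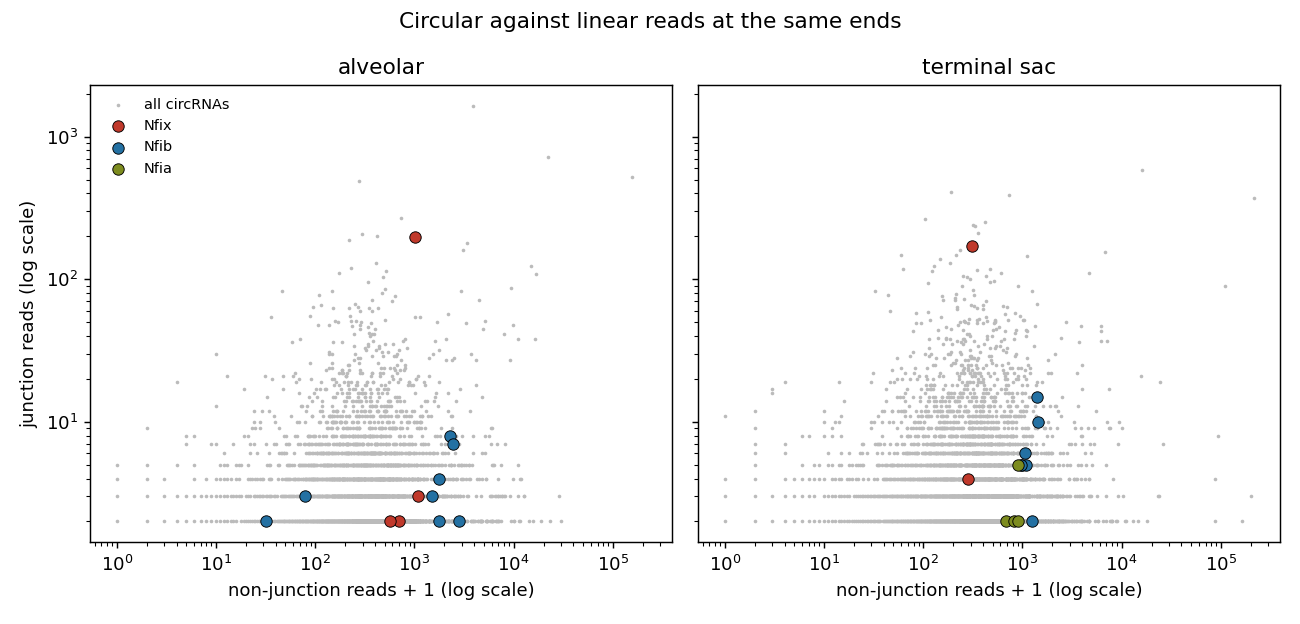
Junction reads against non-junction reads plus 1 at the same ends, both on log axes, for all circRNAs (grey) and the circles of Nfix (red), Nfib (blue) and Nfia (green) in the alveolar (left) and terminal sac (right) libraries. Nfix exon 2 is the uppermost red point, with 199 junction reads beside 1005 linear reads in the alveolar library and 172 beside 312 in the terminal sac library, while the Nfib circles lie at lower junction counts.

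The remaining Nfib circles shared a few ends. Of the 10 with both ends at exon boundaries, 4 ended at exon 6 and held 107 junction reads, 3 ended at exon 8 with 21 reads, and 4 began at exon 2 with 91 reads. The circle of exons 2 to 3 had 5 terminal sac and 4 alveolar junction reads, and that of exons 3 to 8 had 5 and 2. The other 5 Nfib circles had an end away from an exon boundary, with 2 to 5 junction reads in 1 library each. The one at chr4:82293284-82350509, with 5 junction reads in the terminal sac library, runs from 2 bases upstream of exon 6 into the last exon. At chr4:82320270-82320598, with 3 reads in the canalicular library, both ends were intronic and the span of 329 bases held exon 10.

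Nfia circles were near the limit of listing. The gene had 6, 3 and 11 junction reads in the pseudoglandular, canalicular and terminal sac libraries and was not listed in the alveolar library. Exons 2 to 6 had 4 reads in the pseudoglandular and 2 in the terminal sac library, where exons 5 to 9 had 5. Exons 5 to 7 had 3 in the canalicular library, and exons 3 to 6 and 3 to 7 had 2 each in the terminal sac library. A circle of 101 bases inside the last exon had 2 reads in the pseudoglandular library. The terminal sac share of Nfia was 3.17 times the canalicular share (0.836 to 17.7), not called. With 3 reads assumed for the gene in the alveolar library, the alveolar share was 0.348 times the terminal sac share (0.0623 to 1.32) and was not called, a value that rests on that assumption.

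Over the 4 genes summed, the family had 174, 249, 235 and 237 junction reads in order of stage, shares of 0.670%, 0.798%, 0.650% and 0.837%. The alveolar share was 1.25 times the pseudoglandular share (1.02 to 1.53) and 1.29 times the terminal sac share (1.07 to 1.55). Without Nfix exon 2 the family had 54, 63, 63 and 38 junction reads. The alveolar share of these was 0.645 times the pseudoglandular share (0.415 to 0.996). The family sum and the sum of the other 27 circles thus lay on opposite sides of 1 as point values. The interval of the latter ended close to 1, and it was taken only with scaling by total junction reads. Scaling by the median of ratios raises all ratios of this comparison by 0.20 on the log2 scale. That shift would carry the upper end of the interval past 1. At the level of host genes the background was 29.6% of 1084 genes called between the alveolar and the pseudoglandular library and 20.1% of 1127 between the canalicular and the pseudoglandular. It was 24.5% of 1236 between the terminal sac and the canalicular and 24.5% of 1197 between the alveolar and the terminal sac library. Of the family's genes 0 of 2, 0 of 2, 0 of 3 and 0 of 3 were called in these 4 comparisons. Among the marker lists, the mesenchyme markers held 6.48% of junction reads in the alveolar against 0.158% in the terminal sac library. In the same comparison the epithelial markers held 2.61% against 1.22% and the endothelial markers 0.247% against 0.0664%. Striated muscle and heart markers held 0.0918% against 0.0443%, and immune markers were lower, at 0.0388% against 0.0802%. The endothelial markers held 0.0664% in the terminal sac against 0.0609% in the canalicular library. The part of such marker differences in the family's shares was not tested.

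In structure, both ends of 20 of the 28 circles lay at exon boundaries of the same transcript, and these circles held 1 to 8 exons and 240 to 1227 spliced bases. Of these 20, 7 (35.0%) began at exon 2, against 3018 of 10023 such circRNAs in the series (30.1%), and 8 began at exon 3. Single-exon circles made up 2 of the 20, both of exon 2, against 424 of 10023 in the series (4.23%). The median length of single-exon circles in the series was 560 bases, and 46.7% were shorter than the 532 bases of Nfix exon 2. Of the 28 circles 3 (10.7%) were listed in all 4 libraries and 16 (57.1%) in 1 library, against 6.64% and 74.4% of the 13499 circRNAs of the series. The 23 circles with fewer than 10 junction reads had 2 to 9 each and 93 in all, and none had more than 6 in a library.

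Circles of other genes with a like course were sought among the 134 listed in all 4 libraries with 100 or more junction reads, by the Euclidean distance of centred log2 shares over the 4 libraries. The nearest was exon 3 of Samd4, which encodes an RNA-binding repressor of translation, at a distance of 0.09, with 23, 36, 33 and 41 junction reads in order of stage. Next came a circle of Palm2, a paralemmin gene, at 0.10, with 52, 74, 71 and 86. Exon 4 of Zfyve9, which encodes an anchor for SMAD proteins at the endosome, followed at 0.33 with 22, 25, 29 and 31. A circle of exons 7 to 8 of AW554918 had a distance of 0.37 with 18, 40, 31 and 36, and exons 2 to 6 of Ube2k, a ubiquitin-conjugating enzyme gene, 0.44 with 134, 192, 253 and 200. All 5 had their highest junction ratio in the terminal sac library, as Nfix exon 2 did, from 33.7% for Zfyve9 to 54.6% for Ube2k. The median over circRNAs with 10 or more junction reads was also highest there, at 11.5%. The lowest ratio of all 5 was in the pseudoglandular library, from 16.8% for Samd4 to 28.2% for Ube2k. In this they differed from Nfix exon 2, which was lowest in the alveolar library, at 28.4%. As shares, the circles of Samd4, Palm2 and AW554918 fell from the canalicular to the terminal sac library, as Nfix exon 2 did. That of Zfyve9 was level, at 0.0801% and 0.0802%, and that of Ube2k rose from 0.615% to 0.700%. With only 4 points per circle the distances describe the course and no more.

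Other lung transcription factors gave few circles to set beside the family. Of a list of 40 genes 26 had a listed circle, and 4 to 9 had 10 or more junction reads in a comparison. Zeb1, a zinc finger factor of mesenchymal cells, had most, with 29, 23, 45 and 48 junction reads in order of stage. Foxp1, a forkhead repressor, had 18, 19, 33 and 39, an alveolar share 1.99 times the pseudoglandular share (1.11 to 3.69) that was not called. Etv5, a target of fibroblast growth factor signalling, had 18 in the canalicular and 6 in the terminal sac library, and Foxp2, another forkhead repressor, had 8, 5 and 11 before birth and was not listed in the alveolar library. In the alveolar against the pseudoglandular library 0 of 4 listed factors were called, with a median log2 ratio of 0.80 against -0.12 over all host genes. In the alveolar against the terminal sac library 2 of 7 were lower, Cebpa and Meis2, and none was higher, with a median of -1.39 against -0.23. In the canalicular against the pseudoglandular library 2 of 8 were higher, Etv5 and Tcf12, with a median of -0.39 against 0.01. In the terminal sac against the canalicular library 2 of 9 were higher, Cebpa and Meis2, and 2 were lower, Etv5 and Tcf12, with a median of 0.76 against 0.02. Cebpa and Meis2 were not listed in the canalicular and alveolar libraries, nor Etv5 in the pseudoglandular library, and there 3 reads were assumed. Over all host genes, 29.6% were called in the alveolar against the pseudoglandular library and 24.5% in the alveolar against the terminal sac library. The share was 20.1% in the canalicular against the pseudoglandular and 24.5% in the terminal sac against the canalicular library.

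A list of 24 genes for partners and co-regulators of nuclear factor I had 16 with a listed circle. Smad4, the common mediator of TGF-beta and BMP signals, had most, with 79, 45, 55 and 51 junction reads in order of stage, and was 0.474 times as high (0.321 to 0.692) in the canalicular as in the pseudoglandular library, a call of lower. Ncoa2, a nuclear receptor coactivator, had 47, 41, 76 and 54. Crebbp, a histone acetyltransferase, had 16, 42, 48 and 27 and was 2.18-fold higher (1.20 to 4.16) in the canalicular than in the pseudoglandular library. Ncor1, a nuclear receptor corepressor, had 23, 23, 28 and 9, and was called lower in the alveolar library, at 0.359 times the pseudoglandular share (0.146 to 0.805) and 0.410 times the terminal sac share (0.170 to 0.894). In the canalicular against the pseudoglandular library 2 of 9 were higher, Crebbp and Smarca2, and 2 were lower, Ep300 and Smad4, with a median log2 ratio of -0.26 against 0.01 over all host genes. In the terminal sac against the canalicular library 1 of 10 was higher, Ncoa3, and none was lower, with a median of 0.62 against 0.02. In the alveolar against the terminal sac library 1 of 10 was lower, Ncor1, and none was higher, with a median of -0.31 against -0.23. In these comparisons 20.1%, 24.5% and 24.5% of all host genes were called, in the order given.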

How the data were processed

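Total RNA of lung from embryonic and newborn C57BL/6 mice was sequenced, 1 library for each of 4 stages. The authors deposited raw counts of junction and linear (non-junction) reads for each circRNA, per the file headers, whose column names match the caller CIRI. Blank linear counts were taken as 0. They also deposited a junction ratio, as a fraction, which was recomputed from the counts with 0 mismatches. The build is mm10, and the tools listed, with no roles, are BWA, cutadapt, HTSeq, StringTie and HISAT2 2.0.5, per the submitters' processing notes. The lists hold circRNAs with 2 or more junction reads, and other filters are not given in the sources used here. Counting by exact ends means that reads placed a few bases away form another circRNA.

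Libraries had 25983 to 36156 junction reads. Host identifiers, exons and strands were matched to GENCODE release 21 for mouse on the same build (4590 of 4647 identifiers), and the files hold no strand column. Junction sequences came from its transcripts. Shares carry exact Clopper-Pearson 95% intervals. Where a library lists no reads of a circRNA, 3 were assumed. The ratio and odds ratio steps were checked on simulated counts with known changes. Python 3.11.15 was used with scipy 1.17.1, pandas 2.3.3, numpy 2.4.6 and, for figures, matplotlib 3.10.9.

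Every family circle with 10 or more junction reads over the 4 libraries is named with its values, and of each gene list the 4 hosts with most junction reads, beside those called. The full count of the co-regulator list in the alveolar against the pseudoglandular library is not reported here. The members and the lists were chosen with earlier results of these data known. Alternatives were 2 other scalings of the libraries, merging of nearby ends, other read minimums, removal of the leading circle and removal of circRNAs with few alignment patterns.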

Additional observations from a re-analysis of the deposited data

How the results depend on the processing

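The share ratios of Nfix exon 2 stayed inside their counting intervals under each alternative run: scaling by the median of ratios of circRNAs listed in all 4 libraries, scaling by summed non-junction reads, merging of ends within 5 bases and leaving out circRNAs with few alignment patterns. The alveolar against pseudoglandular ratio was 1.52 as reported and 1.74 with the median of ratios, which moves all circRNAs by 0.20 on the log2 scale in that comparison and by 0.18 in the alveolar against the terminal sac library. Non-junction scaling moves them by 0.17 in the alveolar against the pseudoglandular and by 0.18 in the canalicular against the pseudoglandular library. The terminal sac against canalicular interval ended at 1.01 with the median of ratios and close to 1 without few-pattern circRNAs, and excluded 1 with non-junction scaling (0.615 to 0.942). The alveolar against canalicular ratio, 1.18 (0.960 to 1.45), was 1.36 (1.11 to 1.67) and 1.32 (1.08 to 1.62) with the median of ratios and without few-pattern circRNAs, and 1.17 (0.956 to 1.44) with non-junction scaling. The odds ratios kept their values to within their intervals with nothing added to the counts. Nfib exons 2 to 6 stayed called lower in the alveolar against the pseudoglandular library, at 0.412 to 0.420 times, with each of the other scalings. The call rests on 8 against 20 reads and held only narrowly. Its interval then ended at 0.996 with the median of ratios. With non-junction scaling and without few-pattern circRNAs the interval ended at 0.977.

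Without the leading circle, Nfix exon 2, the family ratio was 0.645 (0.415 to 0.996) in the alveolar against the pseudoglandular library. It was 0.971 in the canalicular against the pseudoglandular and 0.770 in the alveolar against the terminal sac library. These ratios were taken only with scaling by total junction reads. The shift of 0.20 on the log2 scale with the median of ratios would carry the interval that ends at 0.996 past 1. The number of circRNAs called in the alveolar against the pseudoglandular library was 276, or 159 with a minimum of 20 reads and 183 when only circRNAs listed in both were compared. In the canalicular against the pseudoglandular library it was 183, or 100 and 115. With the minimum of 20 reads it was 148 against 243 in the terminal sac against the canalicular library and 149 against 241 in the alveolar against the terminal sac library. These alternatives test fewer circRNAs. Of the 5 circles nearest to Nfix exon 2, 2 remained when the minimum was 50 reads.

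No circle of the family was without a deposited host gene, so taking hosts from the annotation changed nothing. Leaving out circRNAs with direct repeats at their ends was not run. The few-pattern alternative (under 0.3 patterns per read at 10 or more reads, 44 circRNAs, 0 of the family) was chosen after seeing the data. No paired analysis was possible because each stage has 1 library. Depth limits 23 of the 28 circles to descriptions, and animal-to-animal spread is unknown.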
